A study of Mus musculus with 4 samples.

Results

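Lipoxygenases and the enzymes and receptors of the leukotriene pathway were described in peritoneal macrophages of mice on a high-fat diet and on a control diet. The list holds 9 of the 24625 genes counted: the lipoxygenases Alox15, Alox5 and Alox12, the leukotriene enzymes and helper Alox5ap, Lta4h and Ltc4s, the receptors Cysltr1 and Ltb4r1, and the epoxide hydrolase Ephx2. Its members were chosen by symbol, around Alox15, whose lower level with high-fat diet in these same libraries was already known. The diet differences of the members are therefore a description: their errors, intervals and calls in the fit over all genes are given beside the values, and nothing is supported with them.

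The mice were C57BL/6J in the series' design text and C57BL/6 in the sample labels. In the high-fat group, fat supplied 60% of the energy of the diet (D12492i); the control group ate standard chow, and both were fed for 12 weeks. All mice, controls included, were injected intraperitoneally with 3% thioglycollate, which recruits macrophages as an irritant, and cells were collected 4 days later, so no group shows the cavity at rest. After removal of ribosomal RNA, 2 libraries per diet were sequenced. The labels do not say whether the libraries came from separate mice or from pools, so p-values measure only the spread between these libraries, which may be technical.

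Gene totals were 45658551 and 40527591 counts in the high-fat libraries and 39846646 and 39347347 counts in the control libraries. All 8 macrophage markers examined exceeded 1 CPM (counts per 1000000 of the library's normalised total) in every library. Lyz2, encoding lysozyme, stood at 16400 and 20990 CPM in high-fat libraries, against 22930 and 22090 CPM in control libraries, and Cd68 at 1239 and 1100 CPM against 1128 and 999 CPM. By edgeR, 1 of the 8 was called lower, against 0.29% of all kept genes, and DESeq2 called 2 lower. The edgeR call was Mertk, a receptor for dying cells, at 40.6 and 32.9 CPM with high-fat diet and 60.1 and 58.7 CPM with control diet. Of the 8 markers, 5 were lower in both high-fat libraries than in both control libraries, and 0 were higher. Of all genes past the filter on low counts, 24.9% were lower in this way. Csf1r, a growth factor receptor, was added after its values were seen. It had 382.9 and 364.7 CPM with high-fat diet and 574.6 and 499.6 CPM with control diet. Csf1r did not pass in edgeR's test (adjusted p = 0.0704), while DESeq2 called it lower, as it did Mertk. Some libraries stood apart. B cell genes summed to 173 CPM in high-fat replicate 2 and to between 64.7 and 68.3 CPM in the other libraries. Mesothelial and fibroblast genes summed to 158 and 79.5 CPM in the high-fat libraries, against 18.6 and 26.3 CPM in the control libraries. The resident macrophage genes summed to 967 CPM in control replicate 1 and to between 519 and 574 CPM in the others. Saa3 alone gave 720 CPM of this in control replicate 1 and between 361 and 402 CPM in the others.

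Lipoxygenases insert oxygen into polyunsaturated fatty acids such as arachidonic acid. The enzyme encoded by Alox5, helped by the membrane protein of Alox5ap, makes leukotriene A4, which Lta4h turns into the neutrophil attractant leukotriene B4 and Ltc4s joins to glutathione to give leukotriene C4. Leukotriene B4 acts on the receptor of Ltb4r1, and the cysteinyl leukotrienes act on that of Cysltr1. The mouse enzyme encoded by Alox15 is known from resident peritoneal macrophages and from eosinophils, and it can be induced by IL-4 through STAT6. Ephx2 encodes the soluble hydrolase that opens epoxides of fatty acids.

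RefSeq promoter sequences on GRCm38.p6, from 250 bases before to 50 bases after the gene start, matched 5 of the 9 members, namely Alox5, Alox12, Lta4h, Ltb4r1 and Ltc4s; Alox15, Alox5ap, Cysltr1 and Ephx2 had no entry. The promoters of Alox5 and Lta4h are shown because these genes encode successive steps of leukotriene B4 synthesis and differed widely in level. Capitals mark the motif GGGCGG, the GC box, on either strand. The Alox5 promoter lies at chr6:116461129-116461428 on the minus strand and the Lta4h promoter at chr10:93453146-93453445 on the plus strand.
Alox5: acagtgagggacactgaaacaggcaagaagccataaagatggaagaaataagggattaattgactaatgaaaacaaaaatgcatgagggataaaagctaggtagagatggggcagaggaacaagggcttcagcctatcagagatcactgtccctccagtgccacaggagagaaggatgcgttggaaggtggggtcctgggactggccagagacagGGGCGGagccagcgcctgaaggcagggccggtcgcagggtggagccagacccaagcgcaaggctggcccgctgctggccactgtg
Lta4h: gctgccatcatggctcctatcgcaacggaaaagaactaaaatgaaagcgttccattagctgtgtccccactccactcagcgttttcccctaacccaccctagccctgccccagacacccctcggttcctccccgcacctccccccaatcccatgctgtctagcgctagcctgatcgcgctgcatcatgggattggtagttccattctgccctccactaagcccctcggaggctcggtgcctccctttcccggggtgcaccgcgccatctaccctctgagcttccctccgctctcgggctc
The Alox5 window held 1 GC box and 7 CpG pairs, and the Lta4h window 0 GC boxes and 16 CpG pairs. The Alox12 window held 3 GC boxes, that of Ltb4r1 1 and that of Ltc4s 0. Of all 32851 promoters of this length, 35.7% held the motif. The STAT6 motif, TTC and GAA with any 4 bases between them, was searched on both strands and was found in 0 of these 5 windows and in 6.95% of all promoters. A match describes letters only.

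The members' levels per length differed widely, with Alox5ap at the top and Alox12 at 0. Levels per length are FPKM, the CPM divided by the length of the gene's merged exons in kilobases. The 4 most abundant members kept the same order in each of the 4 libraries, and their ranges did not meet: Alox5ap ran from 142.6 to 180.0 FPKM, Lta4h from 42.0 to 52.0, Cysltr1 from 8.46 to 12.1 and Ltc4s from 3.37 to 4.26 FPKM. The remaining detected members lay under 1 FPKM in every library. There, Alox5 ran from 0.358 to 0.729 FPKM, Ltb4r1 from 0.306 to 0.482 FPKM and Ephx2 from 0.0697 to 0.208 FPKM, so that Alox5 and Ltb4r1 did not differ beyond their spread. Below the 4th place the order differed between libraries. Alox15 had rank 8 and 7 of the 9 members in the high-fat libraries and rank 5 in both control libraries, and Ltb4r1 had rank 5 and 6 in the high-fat libraries and rank 7 in both control libraries.

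**Figure D1:**
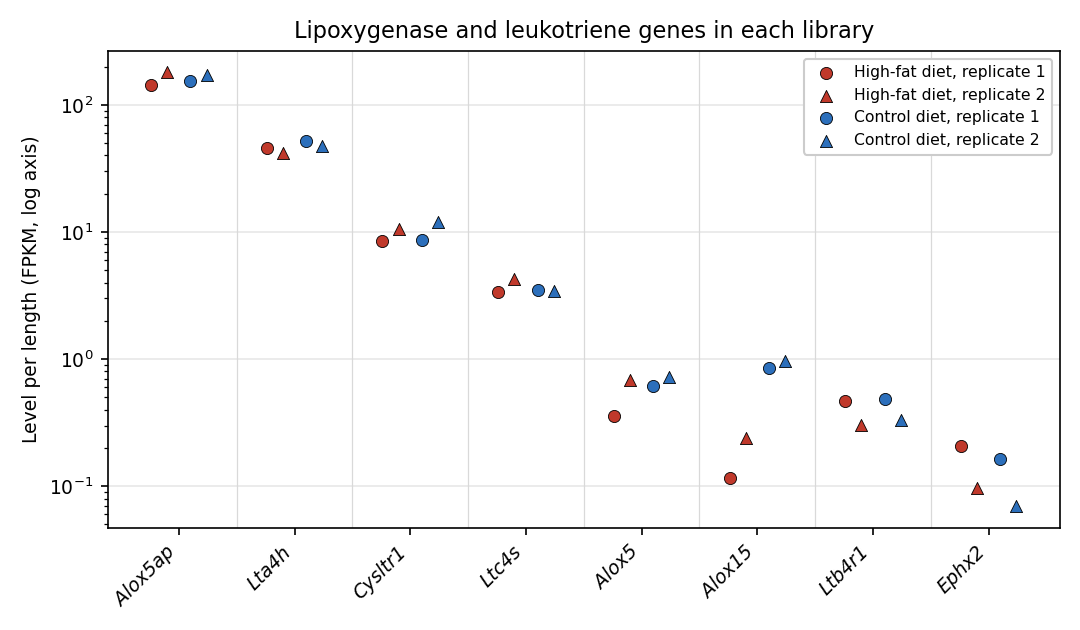
Level per length (FPKM, log axis) of the 8 detected members, each point being 1 library; Alox12 had 0 counts and is not drawn. The leukotriene helper Alox5ap, from 142.6 to 180.0 FPKM, stood above all other members, and the diets overlapped for each member other than Alox15 and Lta4h.

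Alox15 encodes the lipoxygenase on which the list is built, and it was lower in both high-fat libraries than in both control libraries. The gene lies on chromosome 11 from 70157649 to 70165533 (mm9, minus strand, 14 exon blocks, 2414 exonic bases), and its exons overlap no other gene model. It had 13 and 23 counts in the high-fat libraries, with 95% exact Poisson intervals of 6.92 to 22.2 and 14.6 to 34.5 counts, against 83 and 91 counts in the control libraries, with intervals of 66.1 to 102.9 and 73.3 to 111.7. These intervals cover counting error only. On the CPM scale its level was 0.280 and 0.576 with high-fat diet and 2.06 and 2.34 with control diet, so the diets did not overlap.

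The log2 fold change of Alox15, high-fat over control, was -2.38 ± 0.38 (SE; 95% interval -3.22 to -1.53). This was the lowest log2 fold change among the 10945 genes that averaged 1 CPM or more. Among all 12747 kept genes, 5 had a log2 fold change as low or lower, Alox15 included. Since this contrast was used in choosing the list, nothing is read from the rank. The level in high-fat replicate 1 was near the 0.249 CPM that the filter on low counts asked of a library. In bulk RNA, fewer cells of a type and less RNA per cell cannot be told apart, here and for every gene described.

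Alox5 and Alox12, the other lipoxygenases of the list, showed no such separation of the diets. Alox5, encoding the first enzyme of leukotriene synthesis (chromosome 6, 116360089 to 116411196, mm9, minus strand), had 47 and 77 counts, or 1.01 and 1.93 CPM, in high-fat libraries, and 70 and 80 counts, or 1.74 and 2.06 CPM, in control libraries. The low value was that of high-fat replicate 1, while high-fat replicate 2 lay between the control libraries. Its log2 fold change was -0.38 ± 0.34 (SE; 95% interval -1.14 to 0.39). Alox12, encoding the platelet-type lipoxygenase (chromosome 11, 70054957 to 70068843, minus strand), had 0 counts in each of the 4 libraries. As a one-sided 95% limit for counting error, a count of 0 allows up to 3 counts per library, which is 0.0646 and 0.0751 CPM in high-fat libraries and 0.0745 and 0.0773 CPM in control libraries.

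The lipoxygenases outside the list were also scarce. Alox8 had 6 and 6 counts with high-fat diet and 10 and 9 with control diet. Aloxe3, a lipoxygenase of skin, had 1 and 2 counts with high-fat diet and 2 and 3 with control diet, and Alox12e had 2 counts in control replicate 2 and 0 elsewhere. Alox12b, another skin lipoxygenase, had 0 counts in all 4 libraries. None of these 4 passed the filter on low counts.

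The partners of Alox5 in leukotriene synthesis were far more abundant than Alox5 itself. Alox5ap, whose protein presents arachidonic acid to the lipoxygenase (chromosome 5, 150076634 to 150099623, plus strand), had 5652 and 6141 counts in high-fat libraries and 5341 and 5726 counts in control libraries. On the CPM scale this was 121.8 and 153.7 with high-fat diet and 132.7 and 147.5 with control diet, and the control values lay inside the high-fat range. Per length, Alox5ap exceeded Alox5 by 398 and 264 times in the high-fat libraries and by 253 and 237 times in the control libraries. In every library Alox5ap lay above at least 95.97% of the kept genes by FPKM, whereas Alox5 lay above 12.4% and 19.8% of them with high-fat diet and above 17.3% and 19.9% with control diet.

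Lta4h, the hydrolase that makes leukotriene B4 (chromosome 10, 92916141 to 92947641, plus strand), had 94.5 and 86.7 CPM in high-fat libraries, against 107.5 and 97.9 CPM in control libraries. Both high-fat values were below both control values, by a small margin. Its log2 fold change was -0.18 ± 0.10 (SE; 95% interval -0.40 to 0.04). Per length, Lta4h exceeded Alox5 by 127.7 and 61.6 times with high-fat diet and by 84.6 and 65.0 times with control diet.

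Ltc4s, the synthase of leukotriene C4 (chromosome 11, 50049974 to 50051973, minus strand), had 92 and 100 counts, or 1.98 and 2.50 CPM, with high-fat diet, and 82 and 78 counts, or 2.04 and 2.01 CPM, with control diet. High-fat replicate 1 lay just under both control libraries and high-fat replicate 2 above them. The log2 fold change of Ltc4s was 0.15 ± 0.25, and that of Alox5ap was -0.02 ± 0.12 (SE). The 95% interval was -0.42 to 0.71 for Ltc4s and -0.31 to 0.26 for Alox5ap.

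Both receptors overlapped between the diets. Cysltr1, the receptor for cysteinyl leukotrienes (chromosome X, 103771848 to 103799018, minus strand), had 25.2 and 31.5 CPM in high-fat libraries and 25.8 and 36.0 CPM in control libraries. The replicate 2 library of each diet was the higher. Its log2 fold change was -0.12 ± 0.18 (SE). Ltb4r1, the leukotriene B4 receptor (chromosome 14, 56384799 to 56387329, plus strand), had 30 and 17 counts, or 0.646 and 0.426 CPM, with high-fat diet and 27 and 18 counts, or 0.671 and 0.464 CPM, with control diet. Here the replicate 1 library of each diet was the higher, and the log2 fold change was -0.07 ± 0.42 (SE; 95% interval -1.01 to 0.86).

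Ephx2, the soluble epoxide hydrolase (chromosome 14, 66703209 to 66743359, minus strand), had 25 and 10 counts, or 0.538 and 0.250 CPM, in high-fat libraries, and 17 and 7 counts, or 0.422 and 0.180 CPM, in control libraries. The spread within each diet was wider than the difference between diets. Its log2 fold change was 0.40 ± 0.57 (SE; 95% interval -0.88 to 1.67).

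Of the 9 members, 8 passed the filter on low counts, and 1 of these, Alox15, passed an adjusted p of 0.05 in edgeR's quasi-likelihood test, in the lower direction, while 0.29% of all 12747 kept genes were called lower and 0.612% were called in either direction. Since this contrast was used in choosing the list, nothing is read from that count. The diets did not overlap in 2 of the 8, Alox15 and Lta4h, both lower with high-fat diet, against 24.9% of all kept genes separated in that direction and 51% in either direction. The median log2 fold change of the 8 was -0.10, and that of all kept genes -0.0054. Alox15 was not past the threshold without control replicate 1 or without control replicate 2, when its log2 fold change was -2.47 and -2.28, nor by limma-voom (-2.44).

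**Figure D2:**
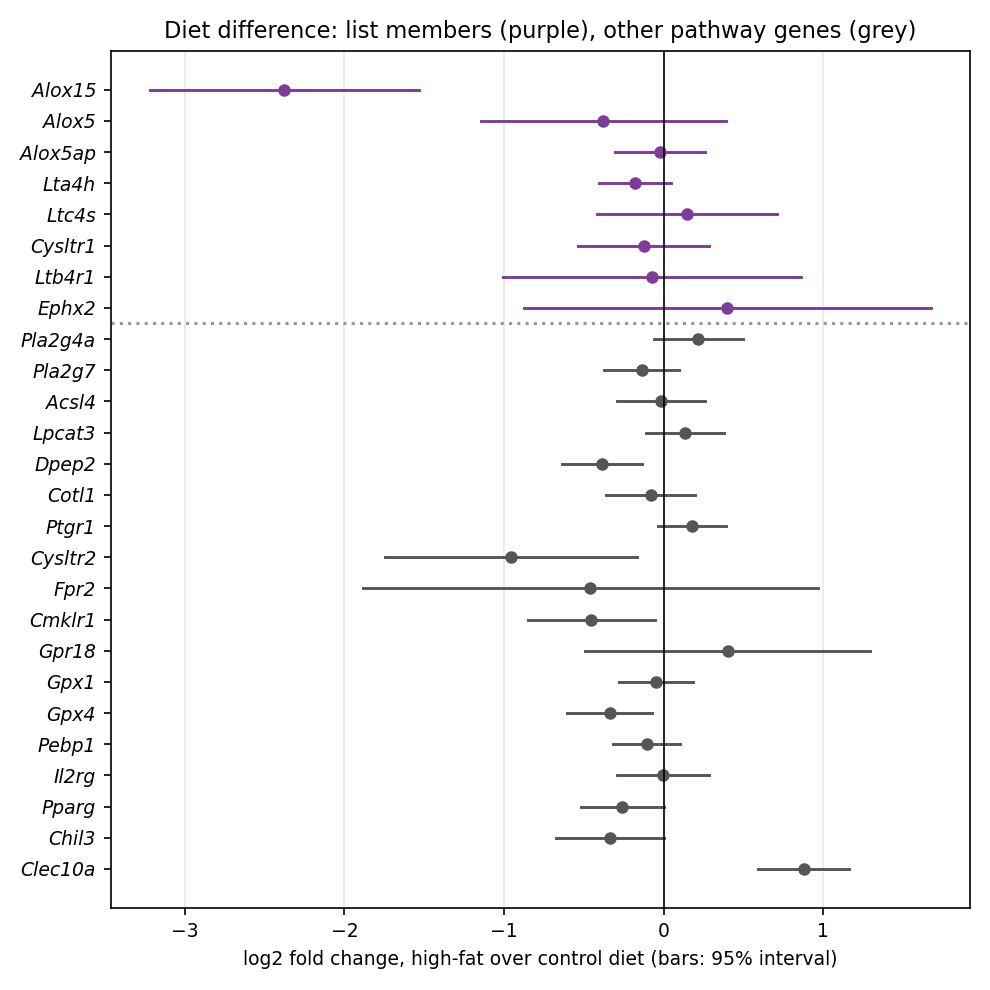
Log2 fold change, high-fat over control diet, with its 95% interval from edgeR for the 8 kept members (purple, above the dotted line) and for other genes of the pathway (grey). The Alox15 interval, -3.22 to -1.53, lies left of 0, while those of the other members cross 0; of the grey genes, Clec10a passed the threshold over all genes.

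Other genes around these enzymes were counted from 6 lists ordered by role, 62 genes in all, of which 42 passed the filter. Of these 42, 1 rose, 0 fell and 41 did not pass the threshold; 0.322% of all kept genes were called higher. An unadjusted p under 0.05 was reached by 9 of the 42, against 17% of all 12747 kept genes, and the counts at an unadjusted p under 0.05 given for single lists are to be read against that share. DESeq2 also called 1 higher and 0 lower. The median log2 fold change of the 42 was -0.12.

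Genes that release or remodel arachidonic acid gave 0 calls among 8 kept of 12, by edgeR and by DESeq2, with 1 at an unadjusted p under 0.05. Pla2g7, a secreted phospholipase that degrades platelet-activating factor, had 464.9 and 430.4 CPM with high-fat diet and 474.8 and 510.9 CPM with control diet; the exons of Pla2g7 overlap an antisense gene, and the sources used here do not say if reads were counted by strand. Acsl4, which couples arachidonic acid to coenzyme A, had a log2 fold change of -0.02 ± 0.12, and Lpcat3, which places it in phospholipids, 0.13 ± 0.11 (SE), with the same doubt of an antisense overlap for Lpcat3. Pla2g4a, the cytosolic phospholipase that supplies arachidonic acid to the leukotriene pathway, was added after its values were seen. It had 35.1 and 40.9 CPM in high-fat libraries and 30.01 and 35.4 CPM in control libraries.

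Genes that export, trim or break down leukotrienes gave 0 calls among 11 kept of 14, by edgeR and by DESeq2, with 2 at an unadjusted p under 0.05. Dpep2, a dipeptidase that can turn leukotriene D4 into E4, had 196.7 and 236.2 CPM with high-fat diet and 276.7 and 288.7 CPM with control diet. Its high-fat libraries lay below its control libraries, and its log2 fold change was -0.39 ± 0.11 (SE; adjusted p = 0.152, edgeR). Cotl1, whose protein binds the Alox5 enzyme, had -0.08 ± 0.12, and Ptgr1, which inactivates leukotriene B4, 0.18 ± 0.09 on the log2 scale. Dpep2 passed the threshold without high-fat replicate 2 and with no filter on low counts.

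Further receptors of lipid mediators gave 0 calls among 4 kept of 9, by edgeR and by DESeq2, with 2 at an unadjusted p under 0.05. Fpr2, a formyl peptide receptor that also binds lipoxin A4, had 6.33 and 15.4 CPM with high-fat diet and 13.0 and 16.9 CPM with control diet, high-fat replicate 1 being the low one. Cmklr1, the chemerin receptor, had 17.9 and 25.8 CPM in high-fat libraries, against 31.8 and 28.1 CPM in control libraries (log2 fold change -0.45 ± 0.17, adjusted p = 0.25, edgeR). Gpr18, a receptor proposed for resolvins, had 1.16 and 2.70 CPM with high-fat diet and 1.39 and 1.52 CPM with control diet. Cysltr2, the other receptor for cysteinyl leukotrienes, was added after its values were seen: it had 26 and 30 counts with high-fat diet and 43 and 57 with control diet, and a log2 fold change of -0.95 ± 0.35 (adjusted p = 0.227).

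Genes of epoxide and hydroperoxide handling gave 0 calls among 5 kept of 9, by edgeR and by DESeq2, with 1 at an unadjusted p under 0.05. Gpx4, the peroxidase that reduces lipid hydroperoxides in membranes, had 112.5 and 92.1 CPM with high-fat diet and 122.3 and 136.4 CPM with control diet (log2 fold change -0.34 ± 0.12, adjusted p = 0.21, edgeR). Gpx1, an abundant glutathione peroxidase, had -0.05 ± 0.10, and Pebp1, whose protein can bind lipoxygenases, -0.11 ± 0.09 on the log2 scale.

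Genes of the IL-4 and STAT6 axis, which is known to induce Alox15, gave 1 call higher and 0 lower among 14 kept of 14, by edgeR and by DESeq2. An unadjusted p under 0.05 was reached by 3 in edgeR's test, against 17% of all kept genes. Of the 14, 11 had a log2 fold change below 0, as did 50.8% of all kept genes. Clec10a, a lectin of macrophages and dendritic cells that IL-4 can induce, rose: it had 34.6 and 29.4 CPM in high-fat libraries, against 18.2 and 16.7 CPM in control libraries (log2 fold change 0.88 ± 0.13, adjusted p = 0.029, edgeR). It was not past the threshold by limma-voom or without either control library. Il2rg, a receptor chain shared by IL-4 and other cytokines, had a log2 fold change of -0.0034 ± 0.13, and Pparg, a nuclear receptor for fatty acid ligands, -0.26 ± 0.12. Chil3, a chitinase-like protein of alternatively activated macrophages, had 86.5 and 93.6 CPM with high-fat diet and 95.8 and 131.9 CPM with control diet.

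Alox15 was set beside genes of resident peritoneal macrophages, of which 14 of 15 passed the filter. Of these, 1 fell, 0 rose and 13 did not pass, and 0.29% of all kept genes were called lower. The median log2 fold change of the 14 was -0.16, and 11 of them lay below 0, as did 50.8% of all kept genes. By DESeq2, 3 fell. F5, coagulation factor V, fell: it had 7.43 and 10.9 CPM with high-fat diet and 23.6 and 29.3 CPM with control diet (log2 fold change -1.53 ± 0.20, adjusted p = 0.0266, edgeR). The exons of F5, and those of Selp, overlap an antisense gene. F5 was not past the threshold without control replicate 1 or without control replicate 2, when the resident genes called were Vsig4, higher, without control replicate 1, and Selp and Saa3, lower, without control replicate 2.

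Several resident genes differed widely between the control libraries, where Alox15 stood at 2.06 and 2.34 CPM. Timd4, a phosphatidylserine receptor of resident macrophages, had 1.94 and 3.05 CPM in high-fat libraries, against 9.42 and 3.58 CPM in control libraries. Selp, P-selectin, had 0.560 and 0.651 CPM with high-fat diet, against 4.60 and 1.03 CPM with control diet. Both were high in control replicate 1, while control replicate 2 lay nearer to the high-fat libraries. Prg4, a lubricating proteoglycan, had 1.98 and 3.73 CPM with high-fat diet and 12.6 and 3.22 CPM with control diet, and Ltbp1, a binding protein of latent TGF-beta, 3.12 and 2.45 against 8.62 and 1.55 CPM.

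Gata6, the transcription factor that defines resident peritoneal macrophages, had 71 and 41 counts, or 1.53 and 1.03 CPM, with high-fat diet, and 48 and 30 counts, or 1.19 and 0.773 CPM, with control diet. The diets overlapped, and its exons overlap an antisense gene. Vsig4, a complement receptor, had 51.3 and 57.0 CPM in high-fat libraries and 90.4 and 26.5 CPM in control libraries, and Fcna, a ficolin, 53.3 and 122.5 CPM against 83.0 and 56.6 CPM. Saa3, an acute-phase protein that many activated macrophages make and that dominated the summed level, had 389.6 and 361.1 CPM against 720.4 and 402.4 CPM.

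The remaining genes of the resident list overlapped between the diets, apart from Apoc1. Icam2, an adhesion molecule, had a log2 fold change of -0.22 ± 0.23, and Cxcl13, a B cell attractant, 0.13 ± 0.74. Garnl3 had -0.07 ± 0.60, the growth factor gene Tgfb2 -0.01 ± 0.41 and the retinoic acid receptor gene Rarb -0.02 ± 0.27. Apoc1, an apolipoprotein, had 7 and 3 counts with high-fat diet and 10 and 7 with control diet and did not pass the filter.

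Eosinophil genes were scarce in all libraries: of 12 listed, 10 had a count and 4 passed the filter. Of these 4, 0 passed the threshold in edgeR's test, 2 had an unadjusted p under 0.05, against 17% of all kept genes, and DESeq2 called 2 lower; their median log2 fold change was -0.70. The granule genes Epx, Prg2 and Prg3 had 0 to 2 counts a library. Epx, eosinophil peroxidase, had 0 and 0 counts in high-fat libraries and 1 and 2 in control libraries; Prg2, major basic protein, had 0 and 0 against 2 and 2 counts; and Prg3, another granule protein, had 0 in all 4. Alox15 had 13 and 23 counts in the same high-fat libraries and 83 and 91 in the same control libraries. Which cells held the Alox15 RNA was not tested.

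The surface genes Ccr3 and Siglecf had more counts than Epx, Prg2 and Prg3, and neither passed the threshold over all genes. Ccr3, the eotaxin receptor, had 79 and 63 counts, or 1.70 and 1.58 CPM, in high-fat libraries, against 174 and 429 counts, or 4.32 and 11.1 CPM, in control libraries (log2 fold change -2.22 ± 0.49, adjusted p = 0.139, edgeR). Siglecf, a lectin of eosinophils and some macrophages, had 75 and 53 counts, or 1.62 and 1.33 CPM, against 119 and 172 counts, or 2.96 and 4.43 CPM (log2 fold change -1.32 ± 0.27, adjusted p = 0.0684, edgeR). In both genes the diets did not overlap, and control replicate 2 was the highest library. Whether each passed changed with the library left out. DESeq2 called both lower, and Siglecf passed in edgeR's test with no filter on low counts.

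Il5ra, the interleukin receptor on which eosinophils depend, also found on B cells, did not follow Ccr3. It had 1.79 and 4.88 CPM with high-fat diet and 2.98 and 3.99 CPM with control diet, and its highest library, high-fat replicate 2, was also the highest for B cell genes. Ear2, a ribonuclease, had 18 and 24 counts with high-fat diet and 7 and 13 with control diet, but its exons overlap the near-identical Ear3 and Ear12, so its value is uncertain. Ear1 had 3 and 0 counts against 1 and 2, Ptgdr2, a prostaglandin D2 receptor, 1 and 2 against 3 and 3, and the transcription factor genes Gata1 and Cebpe 5 and 6 against 2 and 8, and 2 and 1 against 6 and 0. Ear6 had 0 counts in all 4.

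Set against the summed eosinophil list, Alox15 had 4.89 and 6.69 counts per 100 list counts in the high-fat libraries and 19.1 and 11.6 in the control libraries. Without Il5ra, a sum chosen after the values were seen, it had 7.10 and 15.4 counts per 100 in the high-fat libraries and 26.35 and 14.4 in the control libraries. Per 100 counts of Ccr3, also chosen after the values were seen, it had 16.5 and 36.5 in the high-fat libraries and 47.7 and 21.2 in the control libraries. The diets did not overlap in the ratio to the whole eosinophil list, and they overlapped in both other eosinophil ratios. Per 100 counts of the resident macrophage list, Alox15 had 0.0539 and 0.100 in high-fat libraries and 0.213 and 0.4405 in control libraries. Per 100 counts of the neutrophil list, it had 0.346 and 0.856 against 1.84 and 2.02. The diets overlapped in neither ratio, nor in the ratio to the macrophage list. The summed eosinophil list was 5.73 and 8.61 CPM with high-fat diet and 10.8 and 20.3 CPM with control diet. Between the control libraries, Alox15 stood at 2.06 and 2.34 CPM, while the eosinophil sum was 10.8 in replicate 1 and 20.3 CPM in replicate 2. The resident sum, most of it Saa3, was 967 and 532 CPM in these libraries. The part of eosinophils or of resident macrophages in the Alox15 difference was not tested.

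**Figure D3:**
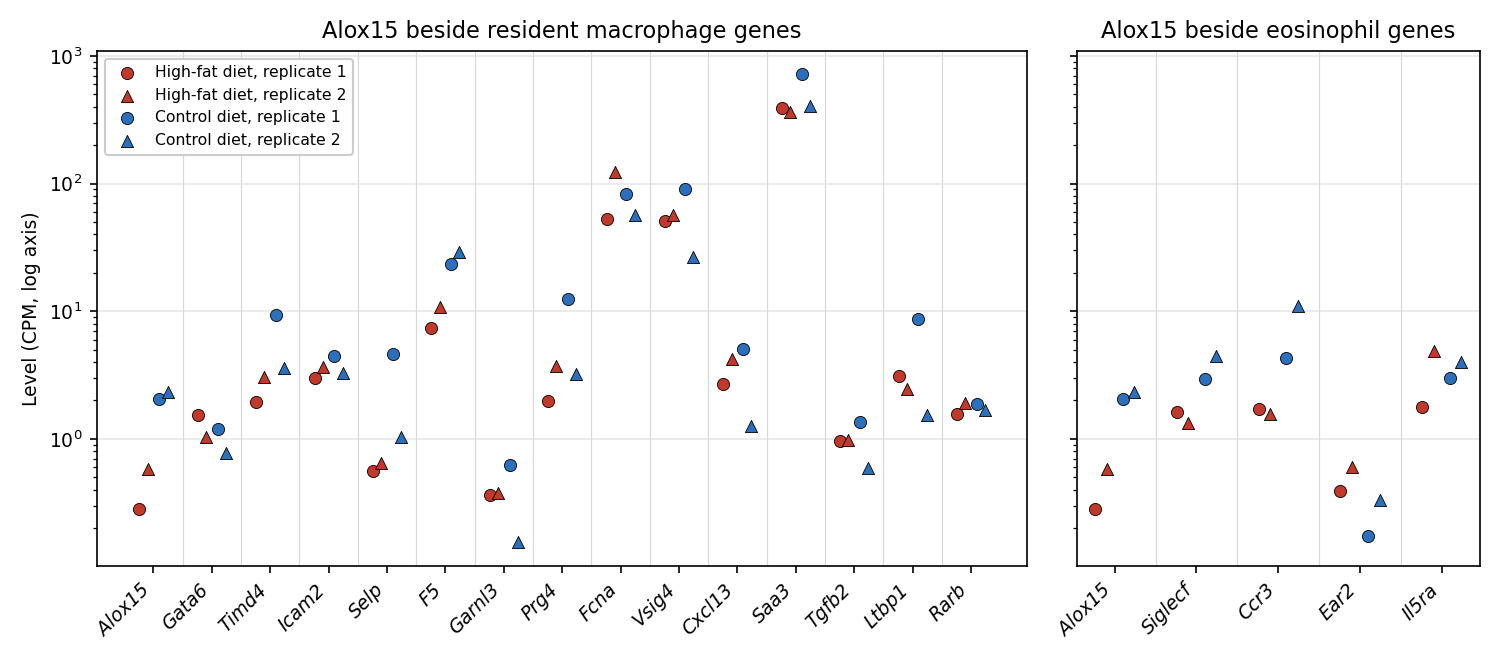
Level (CPM, log axis) of Alox15 and of the kept resident macrophage genes (left) and eosinophil genes (right), each point being 1 library. Alox15 was alike in both control libraries, at 2.06 and 2.34 CPM, while Timd4 and Selp were highest in control replicate 1 and Ccr3 and Siglecf in control replicate 2.

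Genes of other cells that make leukotrienes or lipoxygenase products were counted too. Of 9 kept neutrophil genes 2 fell and 0 rose, against 0.29% of all kept genes called lower, and DESeq2 called 4 lower. The neutrophil list summed to 80.9 and 67.3 CPM in high-fat libraries and 112.3 and 115.9 CPM in control libraries. Mmp9, a gelatinase, had 6.01 and 8.26 CPM against 21.4 and 18.2 CPM, and Csf3r, a growth factor receptor, 27.9 and 23.0 against 42.4 and 39.6 CPM; S100a8, the most abundant of the list per length, had 19.0 and 17.4 against 17.0 and 24.6 CPM. Their granule genes Ngp and Camp had at most 1 count in any library. In the same list, Ltf had 21 and 5 counts with high-fat diet and 33 and 31 with control diet. Mmp8 had 1030 and 471 counts against 859 and 857. These genes were named after the values were seen. Of the 9 kept neutrophil genes, 5 were lower in both high-fat libraries than in both control libraries, against 24.9% of all kept genes. None was higher in this way. All 9 had a log2 fold change below 0, as did 50.8% of all kept genes, and their median was -0.93. Retnlg had 2 and 4 counts with high-fat diet and 21 and 74 with control diet. Padi4 had 47 and 45 counts against 151 and 91. Both were added after their values were seen. S100a8 overlapped between the diets. Alox5 and Ltb4r1, both known from neutrophils, overlapped too. The part of neutrophils in these values was not tested.

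Mast cells are a known source of leukotriene C4. Their genes gave 0 calls among 8 kept by edgeR, with 1 at an unadjusted p under 0.05, and 0 calls by DESeq2. They summed to 69.3 and 90.2 CPM with high-fat diet and 83.9 and 61.8 CPM with control diet. Cma1, a chymase, had 29.99 and 33.7 CPM with high-fat diet and 33.8 and 25.4 CPM with control diet, and Cpa3, a carboxypeptidase, 20.03 and 30.9 against 26.8 and 20.5 CPM. Per length, the mean over the 4 libraries was 28.5 FPKM for Cma1, 16.9 for Cpa3 and 3.63 for Ltc4s.

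Dendritic cell genes gave 1 call lower and 0 higher among 7 kept, and DESeq2 called 2 lower. Over all kept genes, edgeR called 0.29% lower and 0.322% higher. The dendritic cell genes had a median log2 fold change of -1.69 and sums of 9.44 and 15.2 CPM against 16.3 and 16.9 CPM. Cd209a, a lectin of dendritic cells, fell to 0.625 and 0.926 CPM in high-fat libraries, against 4.27 and 3.56 CPM in control libraries. Ccr7, a chemokine receptor, had 5.49 and 10.6 against 5.34 and 5.38 CPM. It was the largest part of the dendritic cell sum in every library. Its highest library, high-fat replicate 2, was also the highest for B cell genes. Of the 7 kept, 5 were lower in both high-fat libraries than in both control libraries, against 24.9% of all kept genes. Ccr7 was the 1 that was higher in this way, against 26.1%. Among B cell genes 1 of 8 kept rose, by edgeR and by DESeq2. It was Igj, the immunoglobulin joining chain, with 3.66 and 3.05 CPM in high-fat libraries and 0.596 and 1.21 CPM in control libraries. Ms4a1 and Cd79b, surface proteins of B cells, had 28.6 and 79.0 CPM, and 18.4 and 43.5 CPM, with high-fat diet, against 26.6 and 29.3 CPM, and 20.3 and 17.5 CPM, with control diet. Among mesothelial and fibroblast genes 1 of 10 kept rose by edgeR, against 0.322% of all kept genes, and 4 rose by DESeq2. The edgeR call was Lum, a matrix proteoglycan, with 1.79 and 1.18 CPM against 0.199 and 0.232 CPM. Dcn, another proteoglycan, stood at 81.9 and 47.8 against 10.9 and 18.3 CPM and the collagen gene Col3a1 at 49.7 and 18.8 against 3.88 and 4.23 CPM. The part of these cells in the members' values was not tested.

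**Figure D4:**
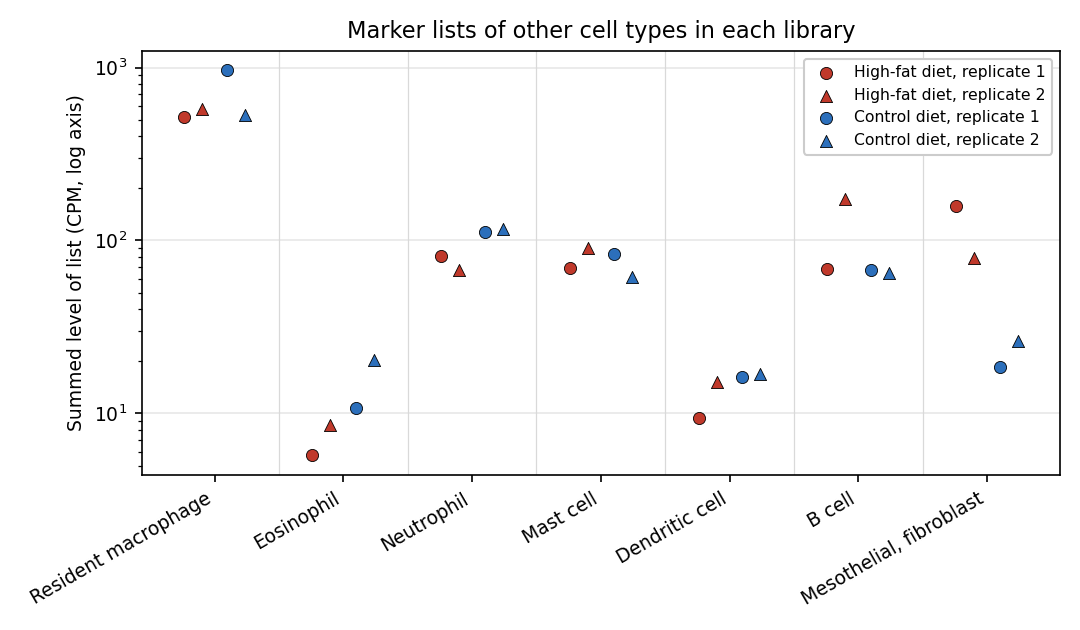
Summed level (CPM, log axis) of 7 marker lists, each point being 1 library. The eosinophil, neutrophil and dendritic cell sums were lower in both high-fat libraries than in both control libraries, and the mesothelial and fibroblast sum was higher there. The resident macrophage sum was highest in control replicate 1 at 967 CPM. In every library Saa3 made up most of the resident sum, and Ccr7 was the largest part of the dendritic cell sum.

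The genes most like Alox15 over the 4 libraries were sought among the 10944 others that averaged 1 CPM or more, by the Euclidean distance between log2 CPM values centred on each gene's mean. The nearest was Cd209a, at a distance of 0.419, with the values given for dendritic cells. F5 lay at 0.821. Scd2, a fatty acid desaturase, at 0.855, had 43.7 and 88.3 CPM with high-fat diet and 189.3 and 164.1 CPM with control diet, and Fasn, fatty acid synthase, at 0.889, had 2.71 and 4.88 CPM against 13.1 and 9.15 CPM. In these 4 genes, as in Alox15, both high-fat libraries lay below both control libraries and high-fat replicate 1 was the lowest. They were picked by likeness to Alox15, so this shared shape follows from the choice. Between the control libraries, Alox15 and F5 were higher in replicate 2, and Cd209a, Scd2 and Fasn in replicate 1. Scd2 and Fasn did not pass the threshold (adjusted p = 0.264 and 0.0781, edgeR). With 4 libraries, such likeness describes these libraries only.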

How the data were processed

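The authors deposited 1 table of unnormalised whole-number counts for each library. The mm9 build, HTSeq, TopHat2 2.0.10 and Cufflinks 2.1.1 are named, per the submitters' processing notes; the sources used here give no settings and do not say if strand was used. From the mm9 gene models, deposited too, exon lengths, positions and overlaps were taken. The 5 summary lines of each table were left out; they included 37.5% to 48.5% of alignments at more than 1 place. The replicates differed far beyond sampling noise (chi-square per degree of freedom 34.9 for high-fat and 33.8 for control diet) and were counted separately.

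The filter on low counts was edgeR's filterByExpr, version 4.0.16 (minimum count 10, minimum total 15), leaving 12747. Diet was tested with edgeR's quasi-likelihood test, robust, with TMM, all 4 libraries and 2 residual degrees of freedom, Benjamini-Hochberg adjusted over all kept genes with a threshold of 0.05. SEs were derived from the fold change and the F value of its test. CPM values use TMM-adjusted totals. The fit was tested on simulated data. Alternatives were DESeq2 1.42.0, limma-voom (limma 3.58.1), other normalization and filters, a replicate block and each library left out. The members and gene lists were chosen with earlier results of these data known. The text names all members, pathway genes past the threshold or among the 3 most abundant per length of their list, every resident or eosinophil gene with a count, of the other marker lists the genes past the threshold and the 2 most abundant, and the 5 genes nearest to Alox15 (log2 CPM, prior count 2), of which 1 is not reported here.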

Additional observations from a re-analysis of the deposited data

How the results depend on the processing

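Alox15 was lower with high-fat diet under all 11 alternatives run, with log2 fold changes from -2.96 to -1.93, and past the threshold in 8 of them. Members past the threshold numbered 0 by limma-voom and 0 to 1 with each library left out. The call ended by limma-voom and without either control library, when calls over all genes numbered 15 without replicate 1 and 18 without replicate 2. Over all genes, 78 calls became 366 by DESeq2, 28 by limma-voom, 522 with no filter on low counts, 46 with at least 1 CPM in 2 libraries, and 15 to 831 with each library left out. The 1 pathway gene called became 0 by limma-voom, 3 with no filter and 0 to 5 with each library left out. Eosinophil genes called numbered 2 by DESeq2 and 1 with no filter, all lower, and the number changed with the library left out. Resident macrophage genes called numbered 3 by DESeq2, all lower. With single libraries left out, the resident genes called changed and were not all lower.

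Members with small differences changed sign when 1 library was left out: log2 fold changes ran from -0.91 to 0.023 for Alox5, -0.20 to 0.14 for Alox5ap, -0.032 to 0.31 for Ltc4s, -0.36 to 0.13 for Cysltr1, -0.41 to 0.20 for Ltb4r1 and -0.27 to 1.12 for Ephx2. Lta4h kept its sign under all 11 alternatives. The cause was not tested.

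The labels give both diets replicate numbers, but 2 pairs with a correlation of deviations of 0.089 over 12747 genes do not show pairing. With the replicate block 113 genes were called, and 1 member, 1 pathway gene, 0 eosinophil genes and 1 resident macrophage gene. Depth limits Ephx2, Ltb4r1 and Alox15 in the high-fat libraries, with 7 to 30 counts a library.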
